A study of Homo sapiens with 90 samples.

Results

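TRIB3, ATF4 and 8 further genes of the integrated stress response were followed in HepaRG cells after 24 h with 1 of 3 agrichemicals, fenbuconazole, imazalil or 2,4-D. The members were DDIT3, ASNS, CHAC1, ATF3, SESN2, FGF21, GDF15 and DDIT4 in addition to TRIB3 and ATF4. They were taken as every probe set whose only gene symbol was one of these names, which gave 15 of 54715 probe sets and 10 of 19774 genes. HepaRG is a human line derived from a liver tumor that differentiates into hepatocyte-like and biliary-like cells. Fenbuconazole and imazalil are azole fungicides, and 2,4-D (2,4-dichlorophenoxyacetic acid) is a phenoxy herbicide. Each chemical was given in DMSO at 9 concentrations from 0.001 to 10 µM with 3 arrays per concentration, and the vehicle control was DMSO alone with 3 arrays. Every culture, control or treated, received the same DMSO vehicle.

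The integrated stress response is a signaling pathway in which several kinases phosphorylate the translation initiation factor eIF2α when cells meet amino acid shortage, unfolded protein in the endoplasmic reticulum, heme deficiency or viral RNA. General protein synthesis then falls while translation of the transcription factor ATF4 increases. ATF4 raises transcription of genes for amino acid synthesis, uptake and redox balance and, with DDIT3 (also called CHOP), of genes that limit growth. In liver the pathway also controls circulating factors such as FGF21 and GDF15. The arrays measured RNA only, so neither eIF2α phosphorylation nor ATF4 protein was observed.

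The values were log2 expression after robust multi-array average (RMA) normalization, so a difference of 1 is a doubling of signal. Signals of different probe sets do not give relative RNA amounts on this platform, so each probe set is compared only with itself, and dim describes its signal on the array. RMA was run separately on the arrays of each chemical, always with the DMSO arrays included, so the 3 sets of 30 columns hold 84 physical arrays. The 9 comparisons of a chemical with DMSO share these controls, as do the 3 chemicals. The arrays of a group carried the codes P1, P2 and P3 in the labels, which do not say what the code stands for, and per-array values are given in that order throughout. The methods call the replicates independent batches of cells, and whether a P code is such a batch was not tested. At 2,4-D the 0.001 and 0.003 µM arrays of P2 carried the same sample code. In P1 and P3 the codes run in the same order, with that of 0.001 µM just before that of 0.003 µM. By that order the shared P2 code is that of 0.001 µM, which was not tested otherwise. Array medians lay between 2.81 and 2.97. Of the marker genes, the hepatocyte genes had a mean level of 12.5 to 12.7 on the fenbuconazole 10 µM arrays and 12.6 on the DMSO arrays. The endothelial genes stood at 3.30 to 3.34 at 10 µM and 3.15 to 3.28 in DMSO.

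ATF4 binds a DNA element whose core, TGATGNAA, was searched on both strands of RefSeq promoter windows (GRCh38.p14) from 250 bases before to 50 bases after each annotated start. The core occurred in 3.62% of 35116 windows of all genes. Of the 16 windows of the members, 4 held it, and they belonged to 4 of the 10 genes, ASNS, CHAC1, ATF3 and FGF21. These stretches are shown because they let the RNA response of a gene be set beside the sequence at its start, with the core in capitals and the other letters in lower case. The stretch before the first TRIB3 start is shown last, since TRIB3 had the clearest response and none of its 3 windows held the core.
ASNS, chr7:97872434-97872511, minus strand, core from base -68: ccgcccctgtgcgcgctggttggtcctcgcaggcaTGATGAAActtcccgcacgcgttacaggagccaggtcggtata
CHAC1, chr15:40953227-40953304, plus strand, core on the opposite strand from base -209: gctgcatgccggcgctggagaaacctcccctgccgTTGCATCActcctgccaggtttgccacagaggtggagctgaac
ATF3, chr1:212565181-212565258, plus strand, core from base -191: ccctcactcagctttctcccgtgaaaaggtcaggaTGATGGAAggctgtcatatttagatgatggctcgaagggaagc
FGF21, chr19:48755435-48755512, plus strand, core on the opposite strand from base -54: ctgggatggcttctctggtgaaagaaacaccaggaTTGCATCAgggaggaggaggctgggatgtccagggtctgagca
TRIB3, chr20:381215-381294, plus strand, no core in the window: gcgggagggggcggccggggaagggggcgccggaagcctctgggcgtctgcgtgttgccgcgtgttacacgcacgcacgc

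The windows of ATF4, DDIT3, SESN2, GDF15 and DDIT4 held no match either, and the cyclic AMP element TGACGTCA, present in 1.85% of all windows, was found in 0 member windows. A match describes letters only, and a window without one does not describe binding elsewhere in the gene. Among the 4 genes with a match, ASNS was the one whose RNA passed a test at 10 µM without a P code term, as given below. CHAC1 and FGF21 were dim, with 47% and 26.6% of all probe sets below them on the DMSO arrays.

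TRIB3, a pseudokinase that binds AKT and is induced by ATF4 and DDIT3, gave the strongest response of the members, and it did so at a single concentration. In 10 µM fenbuconazole its main probe set (218145_PM_at) read 8.11, 8.03 and 8.08, against 6.97, 6.88 and 7.06 in DMSO. The groups did not overlap, and the lowest treated array lay above all 24 fenbuconazole arrays below 10 µM, which ran between 6.94 and 7.26 with a median of 7.09. The rise was 1.11 on the log2 scale, or 2.15-fold (SE 0.083, limma adjusted p = 1.47e-09). Against the 12 arrays of the 4 lowest fenbuconazole concentrations, a baseline that does not use DMSO, TRIB3 rose by 0.96 (adjusted p = 1.15e-10).

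The other TRIB3 probe set (1555788_PM_a_at) showed the same rise. It read 7.06, 6.57 and 6.56 in 10 µM fenbuconazole and 5.83, 5.42 and 5.44 in DMSO, with a highest value of 5.94 among the 24 arrays at lower concentrations. Its log2 fold change was 1.16 (SE 0.15, adjusted p = 3.80e-05). Within P codes, the 10 µM array exceeded the DMSO array of its P code by 1.14, 1.16 and 1.02 at the main probe set and by 1.23, 1.14 and 1.12 at the other, a spread that is small beside the rise. The main probe set ranked 9th by p and 39th by size of rise among all 54715 probe sets.

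Below 10 µM, TRIB3 in fenbuconazole differed from DMSO by 0.02 to 0.21 on the log2 scale, and 3 µM, the next concentration down, gave 7.18, 6.96 and 7.11. The moderated F over the 9 concentrations was significant for both probe sets (adjusted p = 3.19e-08 and 9.87e-04), whereas the linear slope over the 27 treated arrays, 0.11 per 10-fold of concentration (SE 0.041), was not (adjusted p = 0.493). The slope of the main probe set had an unadjusted p of 0.00886 by its moderated t. The response was therefore seen at the highest concentration alone, where a step and the foot of a steep curve cannot be told apart.

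**Figure D1:**
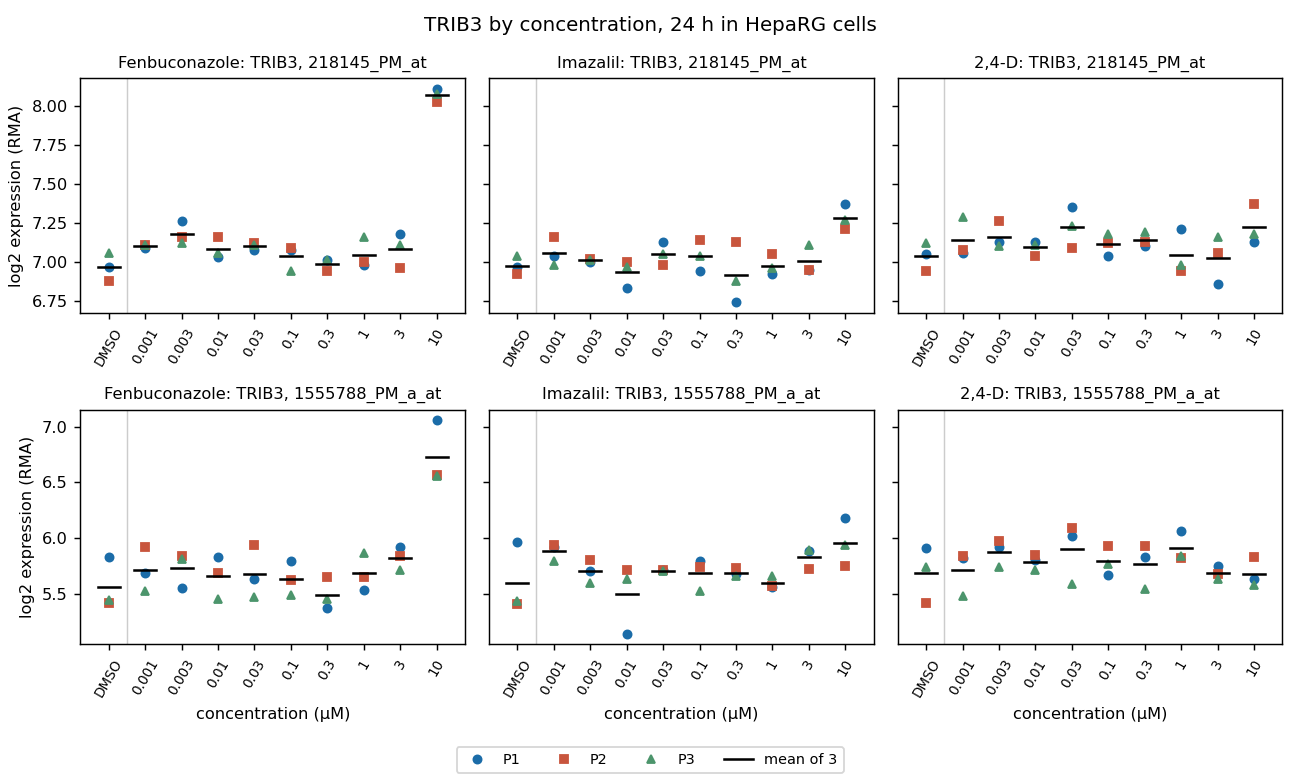
TRIB3 expression (log2, RMA) on each array against concentration (µM) for the 3 chemicals, with the main probe set above and the other below; points are single arrays by P code P1 to P3 and bars are means of 3. In fenbuconazole the 3 arrays at 10 µM (8.03 to 8.11, main probe set) lie above all other arrays, whose highest value is 7.26.

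In 10 µM imazalil, TRIB3 read 7.37, 7.21 and 7.27, against 6.97, 6.92 and 7.04 in DMSO. All 3 treated arrays were above all 3 DMSO arrays and above the 24 arrays at lower concentrations (at most 7.16), but the difference of 0.31 (SE 0.093) did not pass the test (adjusted p = 0.226). It passed against the 6 lowest concentrations (0.28, adjusted p = 0.0428) and not against the 4 lowest (0.27, adjusted p = 0.0752). In 10 µM 2,4-D it read 7.13, 7.37 and 7.18, against 7.05, 6.94 and 7.12 in DMSO. Here the highest of 24 arrays at lower concentrations was 7.35, and the difference of 0.19 was within the array spread (adjusted p = 0.91).

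Of the 15 member probe sets, 2 passed at 10 µM fenbuconazole against DMSO, both of TRIB3, where 0.345% of all probe sets (189) passed, 0.256% upward and 0.0896% downward. In 10 µM imazalil 1 passed, that of ASNS, where 0.406% (222) did, 0.254% upward and 0.152% downward. In 10 µM 2,4-D none passed, but there limma called 0 probe sets of the whole array, with 3035 (5.55%) at an unadjusted p under 0.05, among them 1 member, and 3 with the P code as a block. At an unadjusted p under 0.05, 4 member probe sets were counted in fenbuconazole (6.5% of all) and 4 in imazalil (8.32%). At each concentration below 10 µM, 0 members passed for any chemical, where at most 0.00366% of all probe sets did in fenbuconazole (at 3 µM), 0.0366% in imazalil (at 3 µM, 0.00731% at 1 µM) and 0.00183% in 2,4-D. Against the 4 lowest concentrations, 4 member probe sets passed in fenbuconazole (0.939% of all), 1 in imazalil (1.02%) and 0 in 2,4-D (0.166%), and with the P code block 4, 3 and 0 (1.23%, 1.55% and 0.376%). At 1 and 3 µM against that baseline 0 members passed, where 0.00914% of all probe sets did at 3 µM in fenbuconazole and 0.0164% and 0.0731% at 1 and 3 µM in imazalil. The F over concentrations called 2 members in fenbuconazole (0.232%), 0 in imazalil (0.214%) and 0 in 2,4-D (0.00548%), and the slope called 0 in each (0.0475%, 0.424% and 0.00914%). The log2 differences from DMSO at 10 µM were positive for 15, 14 and 13 of the 15 probe sets in fenbuconazole, imazalil and 2,4-D, with medians of 0.23, 0.18 and 0.08. Over all probe sets the medians were 0.00 in each case and 49.9%, 51.3% and 49.7% were positive. The 3 counts share the DMSO arrays and are not independent of each other, and some genes have more than 1 probe set. Against the 4 lowest concentrations 14, 11 and 11 of the 15 were positive, with medians of 0.14, 0.20 and 0.07. Of all probe sets 48%, 51% and 50.2% were positive there. Against DMSO, 10, 12 and 7 were positive at 3 µM and 11, 9 and 8 at 0.001 µM, where 0 members passed.

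**Figure D2:**
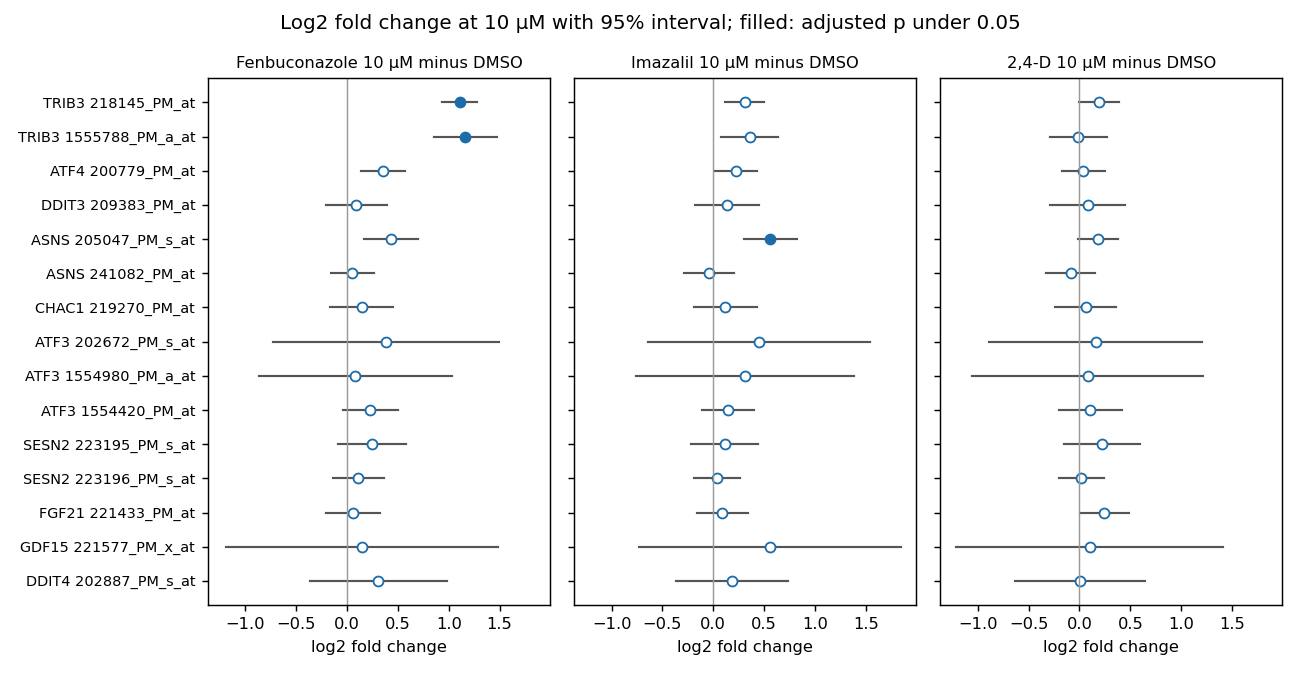
Log2 fold change at 10 µM against DMSO for each of the 15 member probe sets in each chemical, with 95% confidence intervals from limma. The intervals of TRIB3 in fenbuconazole stand apart (1.11 and 1.16), and the wide intervals of ATF3, GDF15 and DDIT4 come with large differences between P codes.

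Of the transcription factors, ATF4 itself, which is controlled mainly at translation, moved little at the RNA level. It read 10.02, 9.99 and 9.79 in 10 µM fenbuconazole, against 9.75, 9.53 and 9.47 in DMSO. The groups did not overlap and all 3 P codes showed a difference (0.26, 0.46 and 0.33). The log2 fold change of 0.35 (SE 0.11, 1.28-fold) missed the threshold without a P code term (adjusted p = 0.27) and passed with the P code as a block (adjusted p = 0.0362). Against the 4 lowest concentrations ATF4 rose by 0.33 (adjusted p = 0.0495, 0.0033 with the block), a call that was lost when any P code was left out (adjusted p from 0.15 to 0.758) or the arrays were centred on their medians (0.0544). In 10 µM imazalil ATF4 read 9.84, 9.80 and 9.72, against 9.70, 9.53 and 9.46 in DMSO. This difference of 0.22 did not pass (adjusted p = 0.542), although the treated arrays lay above the DMSO arrays, as they did for TRIB3 and ASNS. In 2,4-D the difference was 0.04.

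DDIT3, the factor CHOP that acts with ATF4 under prolonged stress, showed no called difference at any concentration. Its probe set read 5.95, 5.33 and 5.83 in 10 µM fenbuconazole and 5.82, 5.25 and 5.76 in DMSO, so each treated array sat close to the DMSO array of its P code. The log2 differences at 10 µM were 0.09, 0.13 and 0.08 in fenbuconazole, imazalil and 2,4-D.

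ATF3, a stress-induced factor of the same family that is also an immediate early gene, differed more between P codes than between treatments. Its main probe set (202672_PM_s_at) read 7.15, 6.14 and 6.15 in 10 µM imazalil, against 7.06, 5.55 and 5.48 in DMSO. The P1 arrays were the high ones in both groups and the difference of 0.45 lay within the spread (adjusted p = 0.898), while with the P code as a block it passed (adjusted p = 0.0427). In 10 µM fenbuconazole the values were 6.95, 6.12 and 6.01, against 7.02, 5.47 and 5.44 in DMSO, a difference of 0.39 (adjusted p = 0.976, 0.533 with the block). The difference was present in P2 and P3 (0.65 and 0.57) and not in P1 (-0.07). A further ATF3 probe set (1554980_PM_a_at) correlated with the main one at r = 0.924 over the 81 treated columns and gave log2 fold changes of 0.08 in fenbuconazole and 0.31 in imazalil, neither passing. The remaining one (1554420_PM_at), which was dim, correlated with these at 0.164 and 0.174.

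Of the amino acid and redox targets, ASNS, the enzyme that makes asparagine and a standard ATF4 target, rose in imazalil. It read 7.77, 7.60 and 7.45 in 10 µM imazalil and 7.17, 6.87 and 7.08 in DMSO. The groups did not overlap and the difference was present within each P code (0.60, 0.73 and 0.36). The log2 fold change was 0.56, or 1.48-fold (SE 0.13, adjusted p = 0.0411, 0.0395 with the block), and 0.48 against the 4 lowest concentrations (adjusted p = 0.0112). The call at 10 µM against DMSO was lost when any single P code was left out (adjusted p from 0.145 to 0.778) and with median centring (0.0527).

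In 10 µM fenbuconazole ASNS read 7.68, 7.45 and 7.21, against 7.15, 6.88 and 7.03 in DMSO. The lowest treated array was above the highest DMSO array but below the highest array at the lower concentrations (7.41). The difference from DMSO, 0.43, did not pass (SE 0.13, adjusted p = 0.277), whereas that from the 4 lowest concentrations, 0.49, did (adjusted p = 0.010). That second call was lost without P1 (0.216) or P2 (0.351). In 10 µM 2,4-D ASNS read 7.15, 7.46 and 7.37, against 7.29, 6.97 and 7.19 in DMSO, with overlapping groups (0.18, adjusted p = 0.926). A second ASNS probe set (241082_PM_at) was dim and correlated with the main one at -0.0399. With both averaged, the imazalil value was 0.26 (adjusted p = 0.187).

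**Figure D3:**
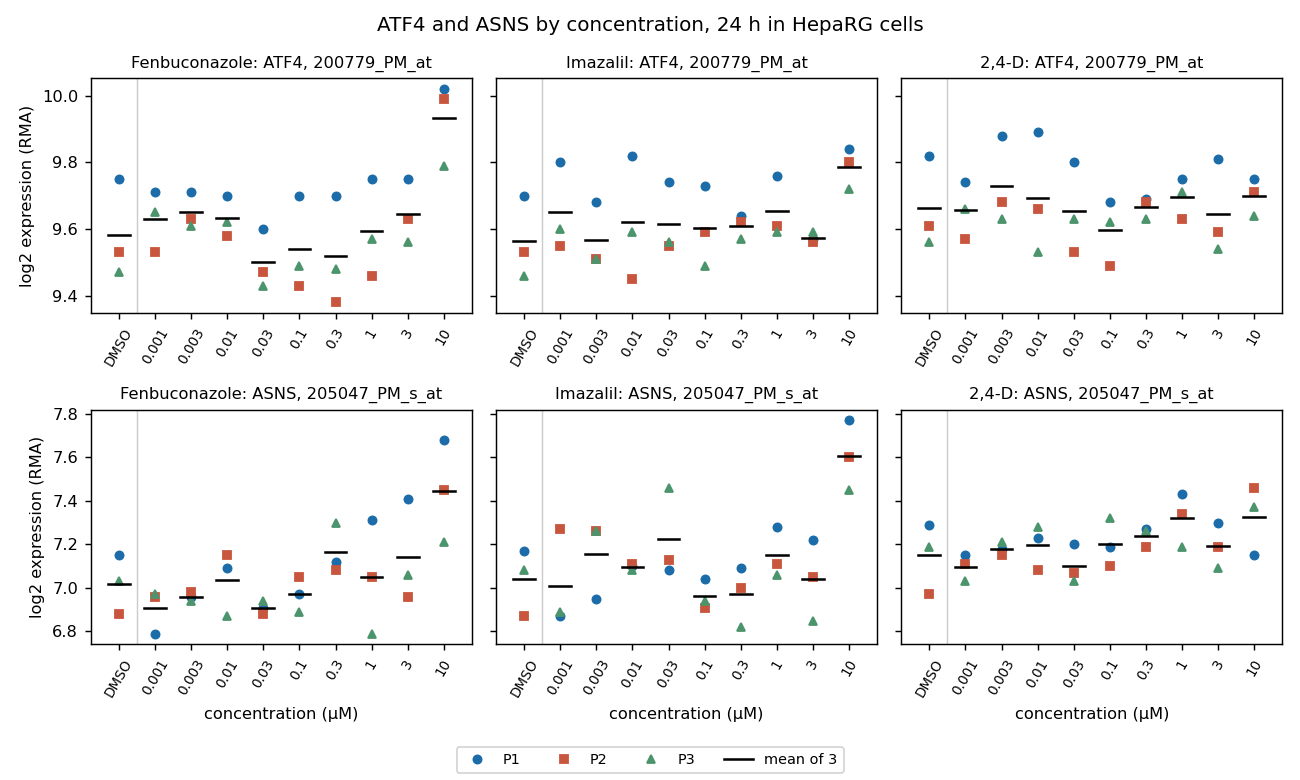
ATF4 (above) and ASNS (below) expression (log2, RMA) on each array against concentration (µM) for the 3 chemicals, with points by P code and bars at the mean of 3. The 10 µM arrays of fenbuconazole and imazalil lie above their DMSO arrays for both genes, and those of 2,4-D overlap with DMSO.

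CHAC1, which degrades glutathione and is among the most strongly induced ATF4 targets in many cell types, was dim here. It read 2.81, 3.06 and 3.14 in 10 µM fenbuconazole, against 2.55, 3.26 and 2.77 in DMSO. The groups overlapped, and the log2 differences were 0.14, 0.12 and 0.06 in fenbuconazole, imazalil and 2,4-D. SESN2, a leucine sensor that restrains mTORC1, read 5.52, 5.23 and 5.08 in 10 µM fenbuconazole and 5.05, 5.04 and 5.00 in DMSO. Its treated arrays were also above all DMSO arrays at 1 µM (5.34, 5.63 and 5.14) and at 3 µM (5.71, 5.73 and 5.29), as were those of 4.17% and 6.56% of all probe sets, with log2 differences of 0.34, 0.54 and 0.25 at 1, 3 and 10 µM, of which none passed. Its other probe set (223196_PM_s_at) gave 0.04, -0.09 and 0.11 and correlated with the main one at 0.0255, so the probe sets did not share this pattern.

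DDIT4 (REDD1), an mTORC1 inhibitor induced by ATF4, hypoxia and glucocorticoid, read 8.06, 8.73 and 8.63 in 10 µM fenbuconazole, against 7.82, 8.30 and 8.39 in DMSO. Each treated array was above the DMSO array of its P code (by 0.24, 0.43 and 0.25), but the groups overlapped and the difference of 0.31 did not pass with or without the block (adjusted p = 0.336 and 0.958). The differences in imazalil and 2,4-D were 0.18 and 0.01.

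Of the secreted factors, FGF21, a liver hormone of fasting and amino acid shortage, was dim. It read 2.59, 2.69 and 2.57 in 10 µM 2,4-D and 2.41, 2.13 and 2.56 in DMSO. The treated arrays were all above the DMSO arrays, by little at the nearest pair, and the difference of 0.25 did not pass (adjusted p = 0.898). In fenbuconazole and imazalil the differences were 0.05 and 0.09.

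GDF15, a stress cytokine of the TGF-β family, gave its highest group mean in 10 µM imazalil. It read 10.09, 8.91 and 8.62 there, against 9.77, 7.98 and 8.19 in DMSO. P1 was the highest array in both groups, with P2 and P3 in opposite orders, and each treated array was above its own DMSO array (by 0.32, 0.93 and 0.42). Because P1 stood well above P2 and P3, the difference of 0.56 did not pass without a P code term (SE 0.63, adjusted p = 0.89), whereas with the P code as a block it did (adjusted p = 0.0027, and 6.43e-05 against the 4 lowest concentrations). In fenbuconazole the corresponding difference was 0.14 and in 2,4-D 0.10, neither called with the block. The GDF15 probe set is of the kind whose probes can match other transcripts, so its level may include these.

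With the block, the members called at 10 µM against DMSO were therefore TRIB3 (both probe sets) and ATF4 in fenbuconazole, where 0.468% of all probe sets were called, and ASNS, ATF3 and GDF15 in imazalil, where 0.579% were. Under either fit, 5 member probe sets in fenbuconazole (both of TRIB3, ATF4, ASNS and 1 of SESN2), 3 in imazalil (TRIB3, ATF4 and ASNS) and 2 in 2,4-D (TRIB3 and FGF21) had all 3 treated arrays above all 3 DMSO arrays, against 4.98%, 6.83% and 3.76% of all probe sets.

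The chemicals were then compared at the same concentration on fold changes from DMSO, for 3 pairs at each of 1, 3 and 10 µM. The DMSO mean of each set was subtracted as a fixed value. The intervals therefore leave out its error and any difference between the separate normalizations. TRIB3 was higher in 10 µM fenbuconazole than in 10 µM imazalil by 0.80 on the log2 scale (95% confidence interval 0.63 to 0.97, adjusted p = 6.48e-10) and than in 10 µM 2,4-D by 0.92 (0.75 to 1.08, adjusted p = 1.94e-12). The other TRIB3 probe set gave 0.81 (0.54 to 1.08) and 1.17 (0.90 to 1.44), with adjusted p of 1.54e-04 and 3.65e-09. Adjusted over the 3 pairs together, all 4 differences still passed (adjusted p at most 1.20e-04). These were the only member probe sets to pass among the 15, where 0.269% and 0.356% of all probe sets did. In imazalil minus 2,4-D at 10 µM 0 members passed, where 0.389% of all probe sets did. At 1 and 3 µM 0 members passed for any pair, where at most 0.0658% of all probe sets did.

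The imazalil minus 2,4-D difference in TRIB3 at 10 µM was 0.12 at the main probe set (interval -0.05 to 0.29, adjusted p = 0.834) and 0.37 at the other (interval 0.10 to 0.64, which leaves out 0, adjusted p = 0.381), and neither passed. The other TRIB3 probe set read 5.44, 5.43 and 5.74 for the same P3 DMSO array in the fenbuconazole, imazalil and 2,4-D sets, and this difference of 0.308 between normalizations was the largest of any member. ASNS, in contrast with TRIB3, was not higher in fenbuconazole than in imazalil (-0.13, interval -0.36 to 0.10, adjusted p = 0.949). The imazalil minus 2,4-D difference in ASNS was 0.38 (interval 0.15 to 0.62, adjusted p = 0.182). Fenbuconazole and imazalil are both azoles, the one carrying a triazole and the other an imidazole ring, and 2,4-D has neither. With the block, 3 further differences passed, namely ATF4 in fenbuconazole over 2,4-D (0.31, adjusted p = 0.0031), GDF15 in fenbuconazole minus imazalil (-0.42, adjusted p = 0.0108) and GDF15 in imazalil minus 2,4-D (0.46, adjusted p = 0.0020). Of all 54715 probe sets, the block fit called 269 in fenbuconazole minus 2,4-D, 217 in fenbuconazole minus imazalil and 322 in imazalil minus 2,4-D.

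Other genes of the pathway were examined as lists. Of 18 measured genes of amino acid synthesis and transport, 3 rose and 0 fell in 10 µM fenbuconazole, against 0.364% and 0.131% of all genes, and 2 rose and 0 fell in 10 µM imazalil (0.405% and 0.253%). The list medians were 0.21 and 0.16, with 0.00 and 0.01 over all genes. SLC7A11, the cystine carrier of system xc-, averaged 6.71 ± 0.27 in 10 µM fenbuconazole and 5.87 ± 0.05 in DMSO (SD, n = 3 each), a rise of 0.85 (adjusted p = 4.68e-04), and it rose by 0.84 in imazalil (adjusted p = 4.20e-05). PHGDH, which opens serine synthesis, rose by 0.56 in fenbuconazole (adjusted p = 0.0285) and 0.66 in imazalil (adjusted p = 0.0024). PSAT1, the next enzyme of that route, rose by 0.54 in fenbuconazole (adjusted p = 0.0456), with 0.43 in imazalil (adjusted p = 0.289). SLC1A4, a neutral amino acid carrier, had 0.46 and 0.36, neither passing. In 2,4-D 0 of the 18 passed and the median was 0.05.

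Of 12 aminoacyl-tRNA synthetases, enzymes that charge transfer RNA and are induced by ATF4, 0 passed at 10 µM against DMSO in any chemical. In imazalil all 12 differences were positive with a median of 0.14, of which that of YARS1 was 0.39 (adjusted p = 0.0913) and passed against the 4 lowest concentrations (0.48, adjusted p = 6.51e-04), where 0.814% of all genes rose and 0.9% fell. Those of TARS1, GARS1 and MARS1 were 0.28, 0.22 and 0.24. In fenbuconazole the median was 0.06 and in 2,4-D 0.03.

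Of 15 other genes tied to ATF4 or DDIT3, 1 rose and 1 fell in 10 µM fenbuconazole (0.364% and 0.131% of all genes) and 0 rose and 1 fell in imazalil (0.405% and 0.253%). The list medians were -0.01 and 0.11, and 7 and 11 of the 15 differences were positive. LPIN1, a phosphatidate phosphatase of lipid synthesis that also acts as a coregulator, averaged 8.90 ± 0.12 in fenbuconazole and 8.15 ± 0.13 in DMSO (0.75, adjusted p = 1.44e-04), and its 0.32 in imazalil did not pass (adjusted p = 0.308). INHBE, a hepatic activin subunit that is an ATF4 and DDIT3 target in liver cells, fell in both azoles, with 6.07 ± 0.81 in 10 µM fenbuconazole and 7.67 ± 0.33 in DMSO (adjusted p = 0.007) and 6.15 ± 0.53 in 10 µM imazalil and 7.68 ± 0.36 in DMSO (adjusted p = 0.0088). In 2,4-D its difference was -0.34 (adjusted p = 0.963). ERO1A, an endoplasmic reticulum oxidase, fell by 0.40 against the 4 lowest concentrations in 2,4-D (adjusted p = 0.046). VLDLR, a lipoprotein receptor, was dim, with -0.17 in fenbuconazole and 0.23 in imazalil.

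**Figure D4:**
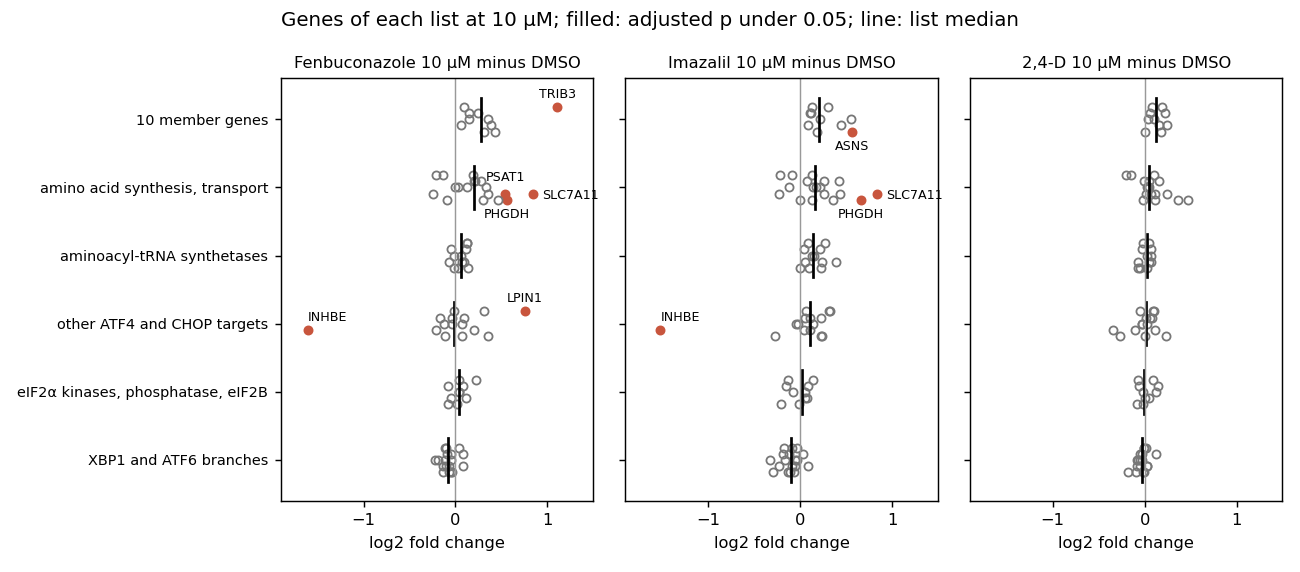
Log2 fold change at 10 µM against DMSO of each measured gene in the members and 5 other lists, for the 3 chemicals; filled points passed at an adjusted p under 0.05 and vertical bars are list medians. TRIB3, SLC7A11, LPIN1, PHGDH and PSAT1 rose and INHBE fell in fenbuconazole, SLC7A11, PHGDH and ASNS rose and INHBE fell in imazalil, and none passed in 2,4-D.

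Genes upstream and in parallel did not pass at 10 µM against DMSO, and 1 of them, CALR, passed against the 4 lowest concentrations. Of 10 genes for the eIF2α kinases, the phosphatase subunits and eIF2B, 0 passed in any chemical, with medians of 0.04, 0.02 and -0.01. Examples at 10 µM fenbuconazole were 0.12 for EIF2AK1, the heme-regulated kinase, 0.04 for EIF2S1, which is eIF2α, 0.22 for PPP1R15B, a phosphatase subunit, and -0.08 for DNAJC3, a kinase inhibitor. Of 18 genes of the XBP1 and ATF6 branches, which expand the folding capacity of the endoplasmic reticulum, 0 passed against DMSO, and 3, 2 and 4 of the differences were positive, with medians of -0.08, -0.10 and -0.03. The chaperone CALR fell by 0.29 in imazalil against the 4 lowest concentrations (adjusted p = 0.0246), where 0.9% of all genes fell. CRELD2 had -0.23 in fenbuconazole and -0.33 in imazalil, PDIA4 -0.19 and -0.17, and SEL1L -0.13 and -0.29, none passing. Over all probe sets 49.9%, 51.3% and 49.7% of the differences from DMSO were positive. The list medians of the amino acid arm and of the chaperone arm lay on opposite sides of 0 in each chemical at 10 µM. A difference between the lists was not tested, and the chemicals share the DMSO arrays. The opposite medians included those of 2,4-D, where 0 probe sets of the whole array were called against DMSO.

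Of 6 measured relatives and partners of TRIB3, 0 passed. TRIB2, a paralog, had 0.13 in fenbuconazole and 0.24 in imazalil, AKT1 and AKT2, kinases bound by TRIB3, had -0.10 and 0.01 in fenbuconazole, and MLXIPL, a glucose-responsive factor, had -0.12. Several members also answer to other pathways, and those were counted too. Of 11 p53 targets, 0 passed in any chemical, with CCNG1 at 0.19, PHLDA3 at 0.07 and TP53INP1 and FAS at -0.03 in fenbuconazole. Of 9 glucocorticoid receptor targets and 9 immediate early genes, 0 passed, with SGK1 at -0.36, DUSP1 at -0.23, JUNB at -0.16, IER3 at -0.29 and MYC at 0.15 in imazalil.

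Of 8 hypoxia targets, PFKFB4, a glycolytic regulator, rose by 0.62 in fenbuconazole (adjusted p = 0.0058) and EGLN3, a prolyl hydroxylase, fell by 0.77 in imazalil (adjusted p = 8.17e-04). At 10 µM against DMSO 0.364% of all genes rose and 0.131% fell in fenbuconazole, and 0.405% and 0.253% in imazalil. Against the 4 lowest concentrations EGLN3, NDRG1 and BNIP3 fell in fenbuconazole (by 0.61, 0.46 and 0.40) and in 2,4-D (by 0.60, 0.63 and 0.47), where 0.789% and 0.207% of all genes fell and 0.683% and 0.0556% rose. Of 7 measured PPARA targets, a receptor that also drives FGF21, CYP4A11 fell by 1.11 in fenbuconazole (adjusted p = 1.43e-05) and by 1.48 in imazalil (adjusted p = 4.00e-07), and ANGPTL4 fell by 0.60 in fenbuconazole (adjusted p = 0.0154). FABP1 rose by 0.36 in fenbuconazole against the 4 lowest concentrations (adjusted p = 0.0156), and PLIN2 had -0.39 against DMSO.

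Of the cell type markers, SPP1, COL3A1 and CD14 passed at 10 µM. Of all genes 0.364% rose and 0.131% fell there in fenbuconazole, and 0.405% and 0.253% in imazalil. Of 7 measured hepatocyte markers 0 passed in any chemical, and ALB averaged 13.16 in 10 µM fenbuconazole and 13.23 in DMSO. Of 6 biliary markers SPP1 rose in fenbuconazole (0.53, adjusted p = 0.0077) and in imazalil (0.86, adjusted p = 2.01e-05), and the mean level of the list was 5.34 to 5.51 in 10 µM fenbuconazole and 5.18 to 5.32 in DMSO. KRT19 averaged 10.08 and 9.98 there, SOX9 6.14 and 5.75, and KRT7 2.77 and 2.66. Of 6 mesenchymal markers COL3A1 fell in imazalil (-0.82, adjusted p = 0.0012), with a list mean of 4.68 to 4.92 there and 4.87 to 4.98 in DMSO. The mesenchymal list mean was 4.82 to 4.94 in 10 µM fenbuconazole and 4.97 to 5.00 in DMSO, without overlap. The biliary list mean was 5.39 to 5.42 in 10 µM imazalil and 5.13 to 5.26 in DMSO, also without overlap, as in fenbuconazole. Of single probe sets, 4.98% lay wholly above DMSO and 5.17% wholly below in 10 µM fenbuconazole, and 6.83% and 5.69% in 10 µM imazalil. Such a share was not computed for list means. Of 5 immune markers CD14 rose in imazalil (0.88, adjusted p = 1.97e-06), with a list mean of 3.38 to 3.62 there and 3.39 to 3.45 in DMSO. Of 5 endothelial markers 0 passed, and the list mean was 3.30 to 3.34 in 10 µM fenbuconazole and 3.15 to 3.28 in DMSO, without overlap. The part of these shifts in the member values was not tested, and in bulk RNA fewer cells of a type and less RNA per cell cannot be told apart.

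At the main probe sets, the P codes separated GDF15, ATF3, DDIT4 and DDIT3 more in each set than the chemical did at 10 µM. With the concentration in the model, an F test over P1, P2 and P3 on the 27 treated arrays called 5 of 15 member probe sets in the fenbuconazole set, 4 in the imazalil set and 7 in the 2,4-D set, against 2.49%, 2.53% and 4.22% of all probe sets. GDF15 had P code means of 9.66, 8.13 and 8.08 in the fenbuconazole set (adjusted p = 2.70e-14) and 9.74, 8.30 and 8.19 in the imazalil set (adjusted p = 9.90e-16). P1 was the high code, by more than any change of GDF15 with treatment. ATF3 followed with 6.82, 5.57 and 5.59 in the fenbuconazole set (adjusted p = 5.70e-10), and DDIT4 ran the other way with 7.73, 8.53 and 8.51 (adjusted p = 4.07e-10).

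In the DMSO arrays P1 likewise stood apart from P2 and P3, with 9.80, 7.98 and 8.21 for GDF15, 7.02, 5.47 and 5.44 for ATF3 and 7.82, 8.30 and 8.39 for DDIT4. DDIT3 was called in fenbuconazole (5.73, 5.47 and 5.60, adjusted p = 0.0365) and 2,4-D (adjusted p = 2.43e-05), and ATF4 in 2,4-D (9.78, 9.62 and 9.62, adjusted p = 0.046). TRIB3 at its main probe set did not follow the P codes, with means of 7.20, 7.18 and 7.19 in the fenbuconazole set (adjusted p = 0.955), and neither did ASNS. The other TRIB3 probe set was called in the 2,4-D set (adjusted p = 0.0362).

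**Figure D5:**
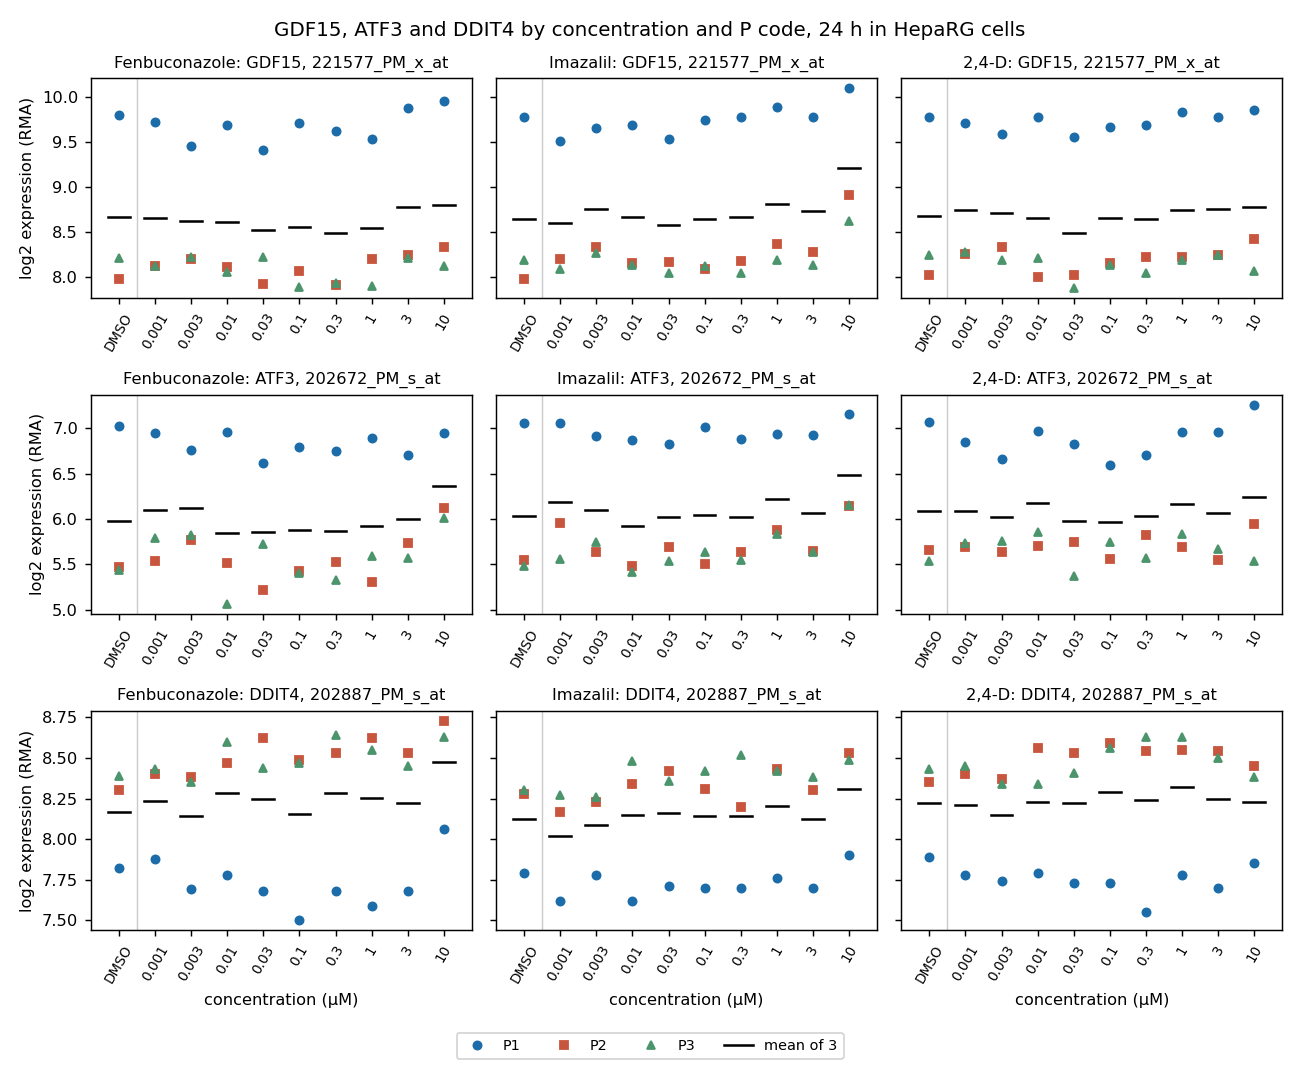
GDF15, ATF3 and DDIT4 expression (log2, RMA) on each array against concentration (µM) for the 3 chemicals, with points by P code and bars at the mean of 3. P1 lies above P2 and P3 for GDF15 and ATF3 and below them for DDIT4 at every concentration and in DMSO.

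The P codes also differed in other lists that these members share. Of 9 immediate early genes, 8 were called in each set, all highest in P1, against 1.37%, 1.43% and 1.67% of genes that were called with P1 highest. In the fenbuconazole set EGR1 averaged 9.85, 7.80 and 8.06, JUN 9.79, 8.67 and 8.80 and FOS 5.30, 3.98 and 4.05, and FOSB, dim at 2.44, 2.34 and 2.26, was the one not called. Of 9 glucocorticoid receptor targets 6 were called in each set, 5 highest in P1 (PER1, KLF9, DUSP1, SGK1 and ERRFI1) and TSC22D3 lowest. PPP1R15A (GADD34), the stress-inducible phosphatase subunit, averaged 5.00, 4.29 and 4.18 (adjusted p = 1.09e-08). TRIB1, a paralog of TRIB3, averaged 7.92, 6.50 and 6.61 (adjusted p = 1.89e-12), TRIB2 5.61, 5.83 and 5.88 (adjusted p = 0.0424), and the biliary factor SOX9 6.28, 5.41 and 5.49. The aminoacyl-tRNA synthetases had 0 called genes in each set. Of the 18 genes of amino acid synthesis and transport, 3 were called in each set, against 2.67%, 2.75% and 4.89% of all genes. In the fenbuconazole set SLC7A11 was among them, highest in P1. INHBE was called in the imazalil and 2,4-D sets, lowest in P1. What sets P1 apart was not tested.

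Over the 27 log2 fold changes (3 chemicals at 9 concentrations), the genes whose main probe sets had the highest Pearson correlation with TRIB3 were DHCR7 (0.945), HMGCS1 (0.944), MVD (0.938), IDI1 (0.931) and ACLY (0.927). In 10 µM fenbuconazole they rose by 0.99, 1.28, 1.54, 0.92 and 0.80 on the log2 scale. The points share DMSO arrays, and without the 10 µM groups the same correlations were 0.45, 0.361, 0.203, 0.135 and 0.351. For ATF4 they were EBP (0.885), INSIG1 (0.882), LSS (0.866), MMAB (0.865) and ACSS2 (0.86), and 0.548, 0.576, 0.362, 0.351 and 0.326 without 10 µM. ATF4 stood 43rd among 19773 genes in its likeness to TRIB3, and TRIB3 stood 55th in that to ATF4. Between these members r was 0.766 over the 27 conditions and -0.0115 over the 24 below 10 µM, so the likeness rested on the highest concentration. ATF4 and ATF3 had r = 0.821, and 0.63 without 10 µM.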

How the data were processed

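The deposited values are log2 expression on Affymetrix HT HG-U133+ PM arrays, made by the authors with RMA, separately for the arrays of each chemical with the same 3 DMSO arrays. RMA and Partek are named in the submitters' processing notes without a version. The 9 DMSO columns are 3 arrays normalized in 3 sets (r between sets from 0.998 for the same array, with member values up to 0.308 apart), and 90 columns were used in all. With arrays there is no read depth, and precision is set by their number. The array annotation gave 1 symbol for 40920 probe sets, several for 864 and none for 12931, and 102 were controls. Probe sets with several symbols or none were tested but not named.

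Group means were fitted with limma 3.58.1 (lmFit and eBayes) in R 4.3.3, with the data.table package (1.17.8), to all 30 arrays of a chemical. Moderated t tests set every concentration against DMSO, with no replicate term, as the methods of the study name limma with contrasts to vehicle. The overall test was a moderated F over the 9 contrasts. A slope per 10-fold was fitted to the 27 treated arrays. Concentrations of 1, 3 and 10 µM were also compared with the mean of the 4 lowest, and chemicals with each other on the 81 treated columns minus the DMSO mean of the set. P values were adjusted by Benjamini-Hochberg over all 54715 probe sets, with a threshold of 0.05. A gene's main probe set is the single-symbol one with the highest mean over the 90 columns. The group and slope fits were run on simulated data for the fenbuconazole set, with independent noise on each array and no P code differences. The block fits and the comparison of chemicals were not simulated. Figures used matplotlib 3.10.9 in Python 3.11.15.

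According to the methods, replicates came from independent batches of cells. No label says what the P code stands for, and it was used here for the replicate block. Deviations from group means had a mean r of 0.0979, 0.094 and 0.117 within a P code for fenbuconazole, imazalil and 2,4-D and -0.0489, -0.0468 and -0.0582 between codes, and own-code arrays were the closest match for 22, 23 and 26 of 30. In 2,4-D the replicate number of the titles differs from the P code and gave a mean r of 0.000718.

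Named genes were all member probe sets, up to 4 genes of each other list with the smallest p at 10 µM, any list member that passed a test, and the 5 genes most like TRIB3 and ATF4. Marker genes and genes of the P code comparison that this rule does not cover were picked with their values in view. The members and lists were chosen with earlier results of these data known. List genes without a single-symbol probe set in the table used were not analysed here. Alternatives were the P code or title number as a replicate block, median centring, brighter probe sets only, an intensity trend with robust fitting, the 6 arrays of a comparison alone, the mean of a gene's probe sets, the 6 lowest concentrations as the baseline, columns as deposited, the slope without 10 µM, and each P code left out. Within-code differences and the fit without the 2,4-D arrays that share a sample code were added after seeing the data. Promoter windows came from a RefSeq table of assembly GRCh38.p14, in which all 10 genes matched by symbol.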

Additional observations from a re-analysis of the deposited data

Results flagged for a closer look

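The response of TRIB3 at 10 µM differed between chemicals by a test of the difference itself. At the main probe set fenbuconazole exceeded imazalil by 0.80 and 2,4-D by 0.92 on the log2 scale, and both differences passed with the P code block, with columns as deposited and with each P code left out. At the other probe set the differences were 0.81 and 1.17. Without P1, 1 of the 2 TRIB3 probe sets passed between fenbuconazole and imazalil.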

How the results depend on the processing

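The rise of TRIB3 at 10 µM fenbuconazole passed under every alternative run, and 2 member probe sets passed there with each P code left out. In imazalil the 1 member probe set called against DMSO became 0 with median centring or with only the 6 arrays compared, and 0 to 1 with a P code left out. With the P code as a replicate block, 3 members were called there, 3 against the low concentrations and 1 by the moderated F, and 1 in imazalil minus 2,4-D. On every fenbuconazole and imazalil array the title number equals the P code, so a block on it was the same fit and no further check. Against the low concentrations, leaving out a P code gave 2 to 3 members in fenbuconazole (4 with all) and 0 to 2 in imazalil (1 with all), where the 6 lowest concentrations as baseline gave 2. By the F, fenbuconazole had 1 member with any P code left out (2 with all). With a P code left out, fenbuconazole minus imazalil gave 1 to 2 and imazalil minus 2,4-D 0 to 1. With the title number in place of the P code, 2,4-D had 0 members called between replicates, against 7. Over all probe sets at 10 µM against DMSO, the 6 arrays alone called 60 in fenbuconazole and 47 in imazalil, and leaving out a P code called 64 to 127 and 48 to 87. In 2,4-D the count of 0 became 2 with brighter probe sets only, 1 with a trend and robust fitting and 3 with the block. Some differences near 0 changed sign with a P code left out. In 2,4-D these were DDIT3 (-0.023 to 0.21), DDIT4 (-0.040 to 0.032), GDF15 (-0.050 to 0.24), CHAC1 (-0.044 to 0.22) and, against the low concentrations, ATF4 (-0.024 to 0.062) and TRIB3 (-0.020 to 0.12). In imazalil they were DDIT3 (-0.049 to 0.27) and FGF21 (-0.063 to 0.17), and in fenbuconazole FGF21 (-0.17 to 0.22). ATF4 in 2,4-D against the low concentrations was -0.00015 without the arrays that share a sample code, a setting chosen after seeing the data. With columns as deposited, chemical differences were called for 391, 563 and 1020 probe sets, against 147, 195 and 213. The causes were not tested. With 3 arrays a group, small changes of single genes could not be detected.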
